A study of Mus musculus with 12 samples.

Results

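Lypd1, Tshz1, Kremen1, Sema5b and Bach2 are genes whose transcripts mark the striosomes of the striatum. They were followed here in the caudate putamen, the dorsal striatum, of mice exposed to ethanol before birth. Probes were taken by their single gene symbol in the platform annotation. Of the 5 genes 4 had a probe, among 19057 genes named on the array, and together they had 7 of 45281 probes. Lypd1 had 2 probes (ILMN_1239134, the brighter, here probe 1, and ILMN_1253365, probe 2), Tshz1 had 1 (ILMN_1216265), Kremen1 had 3 (ILMN_1228479, ILMN_2651035 and ILMN_1233658, here probes 1 to 3) and Bach2 had 1 (ILMN_2579880). The annotation gave Sema5b no probe, and the gene is not analysed here. The genes were chosen by their measured intensity differences between ethanol-exposed and control samples, overall and on each array chip, so those differences are given below as a description, without a test.

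Total RNA of 12 male C57BL/6J mouse samples, aged 12 weeks, was measured on Illumina bead arrays. In the ethanol group (6 samples) the mothers had voluntary access to ethanol at 10% (v/v) from day 0.5 to day 8.5 post-coitum, and the control group had 6 samples. Each of 2 chips, here chip 1 (replicates 1 to 3 of each group) and chip 2 (replicates 4 to 6), held 3 samples per group. The labels do not name the mouse or litter of a sample, nor what the control mothers drank, so the spread between samples may be partly technical. The exposure ended long before the tissue was taken, and all values are from the adult brain.

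Striosomes, also called patches, are islands of projection neurons within the larger matrix of the striatum, known for their content of opioid receptors and for axons that reach dopamine neurons of the midbrain. Lypd1 encodes a membrane-anchored protein of the Ly6 family that dampens nicotinic acetylcholine receptors. Tshz1 is a zinc finger transcription factor, and in mice it marks striosomal neurons of the direct pathway. Kremen1 is a receptor for Dickkopf proteins and restrains Wnt signalling. Sema5b is a semaphorin that guides axons, and Bach2 is a transcription factor best known from lymphocytes, which binds DNA together with small Maf proteins.

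Because both Lypd1 probes are annotated to the same transcript record while RefSeq (GRCm38.p6) lists several start sites for the gene, the start windows of Lypd1, the member with the widest differences, are shown here. Each window spans 250 bases before to 50 after a start, on the minus strand of chromosome 1, 5′ to 3′. Capitals mark matches, on either strand, to GGGCGG (a GC box) or CACGTG (an E-box).
Lypd1 window 1, chr1:125912879-125913178: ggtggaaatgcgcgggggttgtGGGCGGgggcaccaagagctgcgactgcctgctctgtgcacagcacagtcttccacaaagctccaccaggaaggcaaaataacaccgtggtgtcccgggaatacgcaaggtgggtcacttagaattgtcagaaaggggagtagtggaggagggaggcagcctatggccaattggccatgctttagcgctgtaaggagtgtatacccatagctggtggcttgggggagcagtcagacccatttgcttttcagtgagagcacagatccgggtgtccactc
Lypd1 window 2, chr1:125912165-125912464: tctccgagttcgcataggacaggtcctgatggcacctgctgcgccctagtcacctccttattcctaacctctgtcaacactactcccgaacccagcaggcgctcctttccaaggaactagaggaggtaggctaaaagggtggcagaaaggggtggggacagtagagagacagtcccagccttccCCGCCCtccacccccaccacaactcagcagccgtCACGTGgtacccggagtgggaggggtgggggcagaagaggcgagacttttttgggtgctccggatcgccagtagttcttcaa
Lypd1 window 3, chr1:125911338-125911637: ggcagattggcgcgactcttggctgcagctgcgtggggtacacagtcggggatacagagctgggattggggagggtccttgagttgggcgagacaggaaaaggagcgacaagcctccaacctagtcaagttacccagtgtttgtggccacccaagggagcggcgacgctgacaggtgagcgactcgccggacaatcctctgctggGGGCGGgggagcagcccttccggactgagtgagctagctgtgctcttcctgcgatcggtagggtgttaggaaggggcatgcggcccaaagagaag
Each of the 3 windows held 1 GC box, which 35.7% of 32851 mouse start windows of this length hold, and window 2 also held 1 E-box, which 7.15% hold. No window held TGANTCA, the core letters recognised by Bach and Maf factors (7.81% of windows), or TGACGTCA, the cAMP response element (1.79%). The windows held 9, 12 and 17 CpG dinucleotides, against a median of 7 over all windows. Of the other members, start windows were also taken for Bach2 and Sema5b and are not shown. No window is given for Tshz1 or Kremen1, and nothing is read from that about their start sites. The array signal does not tell which start was in use.

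Detection separated the members before any comparison. Lypd1 probe 1, Tshz1 and Kremen1 probe 1 were detected on all 12 arrays at a detection p under 0.05. Lypd1 probe 2 lay near background and was detected on 6 of 6 ethanol arrays and 3 of 6 control arrays. Kremen1 probes 2 and 3 and the Bach2 probe were detected on 0 of 12 arrays, with raw intensities of 105.1 to 146, 106.6 to 135.1 and 103 to 136.7, where the median of all probes on an array lay between 136.1 and 153.2. These 3 probes give no measure of the direction of Kremen1 or Bach2, and no fold is given for them. The 4 other probes passed the filter on dim probes (detected on at least 6 arrays), as 44.8% of all probes did. Lypd1 probe 2 passed it with the help of the ethanol arrays, where it was brighter. The tissue label was checked with genes of striatal projection neurons, of which 12 of 15 passed the filter, Drd1 at a log2 intensity of 12.68 ± 0.13 in controls (SD, n = 6) and Drd2 at 10.68 ± 0.28.

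**Figure D1:**
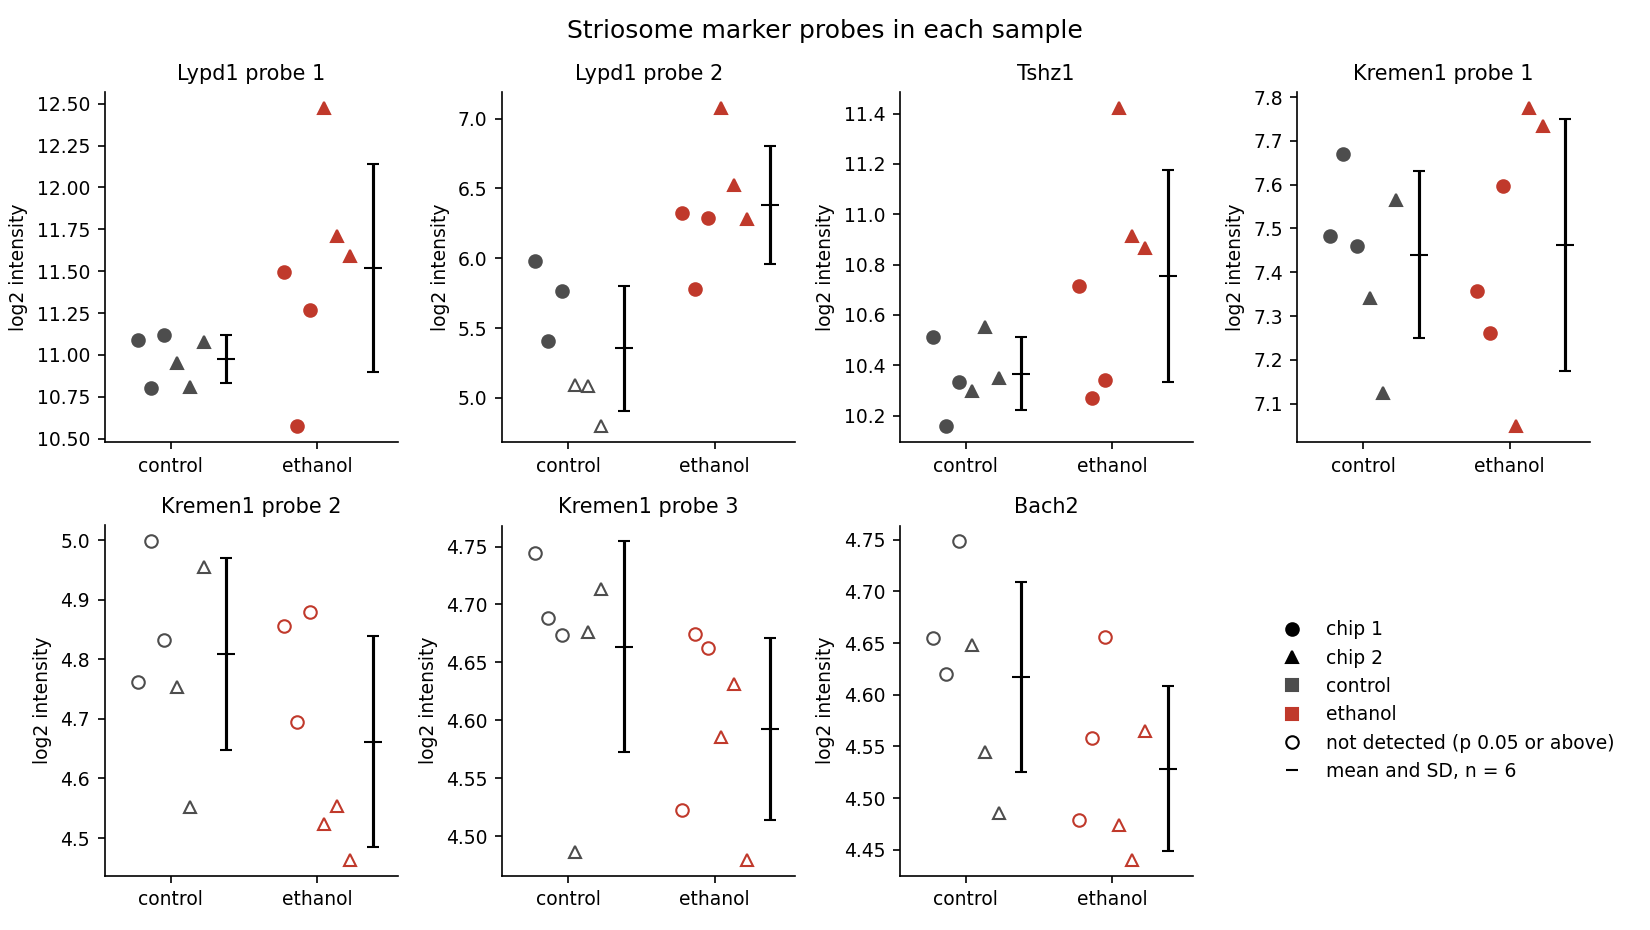
Normalized log2 intensity (y axis of each panel) of the 7 member probes in the 12 samples, by group (x axis), with circles for chip 1, triangles for chip 2 and open symbols where the probe was not detected; bars show the mean and SD (n = 6). Ethanol 4 is the highest sample for both Lypd1 probes and for Tshz1, and Kremen1 probes 2 and 3 and Bach2 were detected on 0 arrays.

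Lypd1 was brighter in most ethanol-exposed samples by both of its probes. Raw intensity of probe 1 was 1850 at the lowest, 2112 at the median and 2448.5 at the highest in the 6 controls, and 1644, 2991 and 5965 in the 6 ethanol-exposed samples. After normalization its log2 intensities on chip 1 were 11.09, 10.80 and 11.12 in controls and 11.49, 10.57 and 11.27 in ethanol 1, 2 and 3. On chip 2 they were 10.95, 10.81 and 11.07 in controls and 12.48, 11.71 and 11.59 in ethanol 4, 5 and 6. Every ethanol-exposed sample but ethanol 2 (5 of 6) was brighter than the top control, and ethanol 2 was dimmer than all controls. The mean was 10.97 ± 0.14 in controls and 11.52 ± 0.62 in ethanol-exposed samples (SD, n = 6), a log2 difference of 0.54 (SE 0.22), or 1.46-fold.

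The size of that difference depended on ethanol 4 and ethanol 2. Without ethanol 4 the difference of Lypd1 probe 1 was 0.35, and without ethanol 2 it was 0.73. Without ethanol 3 and ethanol 4, the samples highest for thalamus genes, it was 0.37. Leaving out any other single sample gave 0.51 to 0.60. The direction was kept in each of these fits.

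Lypd1 probe 2 gave a wider difference from a much weaker signal. Its raw intensity ran from 125.6 to 179.1 in controls, with a median of 152.1, and from 173.7 to 248.1 in ethanol-exposed samples, with a median of 196. Normalized values on chip 1 were 5.98, 5.41 and 5.76 in controls and 6.32, 5.78 and 6.29 in ethanol 1, 2 and 3. On chip 2 the controls were at 5.09, 5.08 and 4.80 and ethanol 4, 5 and 6 at 7.08, 6.52 and 6.28. As for probe 1, 5 of 6 ethanol-exposed samples exceeded the highest control, and ethanol 2 was again the lowest of its group. The means were 5.35 ± 0.45 and 6.38 ± 0.42 (SD, n = 6), a log2 difference of 1.03 (SE 0.22). In the intensities as normalized by the authors the same probe differed by 0.38, and the deposited raw intensities, quantile normalized with no background correction, also gave 0.38. For probe 1, far above background, the authors' normalized intensities gave 0.52.

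The probe for Tshz1 ranked the ethanol-exposed samples as Lypd1 probe 1 did. Raw intensity was 1275 to 1557 in controls (median 1458) and 1357 to 2984 in ethanol-exposed samples (median 1785). Log2 intensities in controls 1 to 6 were 10.51, 10.16, 10.33, 10.30, 10.55 and 10.35. Ethanol 1 to 6 had 10.72, 10.27, 10.34, 11.42, 10.91 and 10.87. Ethanol 1, 4, 5 and 6 lay above every control, while ethanol 2 and 3 lay within the control range. The means were 10.37 ± 0.15 and 10.76 ± 0.42 (SD, n = 6), a log2 difference of 0.39 (SE 0.16), or 1.31-fold. Without ethanol 4 the difference was 0.26, and 0.33 without ethanol 3 and ethanol 4.

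On its detected probe, Kremen1 had nearly equal group means over all 12 samples. Log2 intensity of probe 1 was 7.12 at the lowest, 7.47 at the median and 7.67 at the highest in controls, and 7.05, 7.48 and 7.78 in ethanol-exposed samples. The groups overlapped over nearly their whole range, and the sample highest for Lypd1 and Tshz1, ethanol 4, was the lowest of all 12 for Kremen1. The log2 difference was 0.02 (SE 0.13), or 1.02-fold. Its sign turned when control 5, ethanol 3, ethanol 5 or ethanol 6 was left out, and the values ran from −0.04 without control 5 to 0.10 without ethanol 4.

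Of 20296 probes tested with limma, 0 (0%) had an adjusted p under 0.05 between the groups, the smallest adjusted p being 0.845, and 1175 (5.79%) had an unadjusted p under 0.05. The 4 tested member probes were thus among those not called. All 4 were higher in ethanol-exposed samples, as were 50.2% of all tested probes. On both chips 3 of 4 were higher, against 23.1% (48.2% on chip 1 and 51.7% on chip 2). Nothing is read from these counts because this contrast chose the genes. Higher with an unadjusted p under 0.05 were 588 probes (2.9%). In 0 of 4 did every ethanol-exposed sample exceed every control, which 0.158% of tested probes did. In bulk tissue, a different share of cells of 1 type and a different RNA content per cell cannot be told apart, and this touches every difference given here. An offset added before taking log2 also makes differences of dim probes smaller. Background correction went the other way for the dim Lypd1 probe 2, which differed by 1.03 with it and 0.38 without it.

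**Figure D2:**
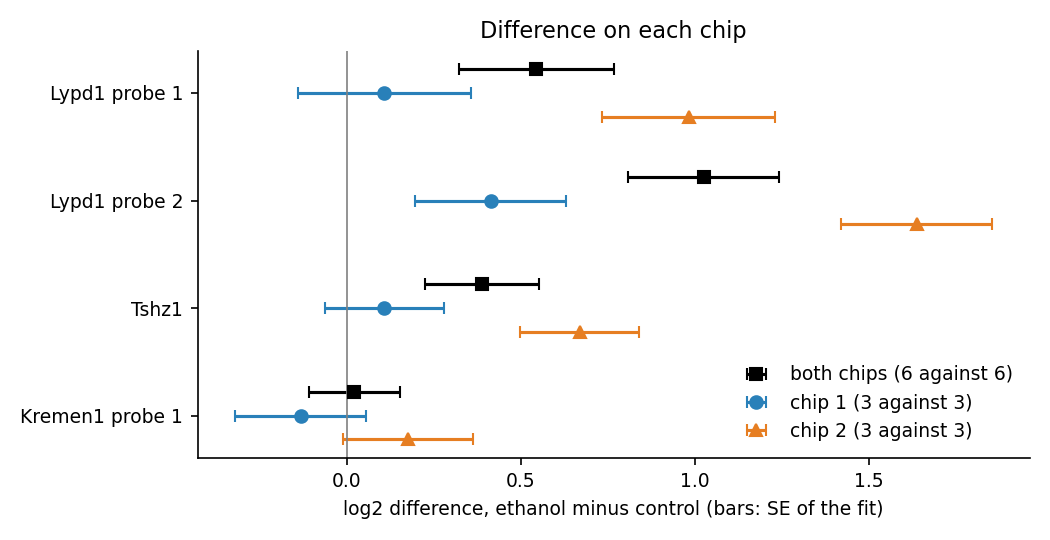
Log2 difference, ethanol minus control (x axis), of the 4 tested member probes (y axis) over both chips and on each chip, with bars for the SE of the fit. Both Lypd1 probes and Tshz1 lie further from 0 on chip 2 than on chip 1, and Kremen1 lies on either side of 0.

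The difference in Lypd1 and Tshz1 sat mainly on chip 2. Lypd1 probe 1 differed by 0.11 (SE 0.25) on chip 1 and by 0.98 (SE 0.25) on chip 2, and probe 2 by 0.41 (SE 0.22) and 1.64 (SE 0.22). Tshz1 differed by 0.11 (SE 0.17) and 0.67 (SE 0.17), and Kremen1 by −0.13 (SE 0.19) and 0.18 (SE 0.19). On chip 2, 3 of the 4 probes had all 3 ethanol-exposed samples above all 3 controls, as had 8.46% of all tested probes, and on chip 1 it was 0 of 4, against 6.17%. Without ethanol 4, the differences on chip 2 were 0.71, 1.41 and 0.49 for Lypd1 probe 1, Lypd1 probe 2 and Tshz1. For Kremen1 probe 1 the difference on chip 2 was then 0.41 (SE 0.16), against 0.18 with ethanol 4. Whether the chips differ was not tested for these genes, since the rule that chose them used each chip.

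On chip 2 the 3 controls gave Lypd1 probe 2 no signal above background. Set against the lowest detected signal of each of those arrays, the ethanol-exposed mean on chip 2 was at least 2.62-fold higher. This bound holds only for the background-corrected values at an offset of 16. Over both chips the probe differed by 1.03 with that correction and offset, and by 0.38 without the correction. With the correction and an offset of 50 it differed by 0.64. On chip 1 the same probe was detected in all 3 controls and all 3 ethanol-exposed samples.

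A comparison that the choice of genes did not use directly is that between the chips themselves, with group in the model. It averages the shift between chips over both groups. It therefore holds ethanol-exposed values by which the genes were chosen, and its p-values for the member probes carry that limit. By limma's test 2 of 20296 probes (0.00985%) differed between chips at an adjusted p under 0.05, and 0 of the 4 member probes did. At an unadjusted p under 0.05 it was 2016 probes (9.93%), among them 1 member probe, Tshz1. Lypd1 probe 1 was higher on chip 2 by 0.38 (SE 0.21, adjusted p = 0.573) and Tshz1 by 0.34 (SE 0.14, adjusted p = 0.447). Lypd1 probe 2 differed by −0.11 (SE 0.22, adjusted p = 0.911) and Kremen1 by −0.04 (SE 0.13, adjusted p = 0.956). In controls taken alone, Lypd1 probe 1 had 11.00 ± 0.17 on chip 1 and 10.94 ± 0.13 on chip 2, and Tshz1 10.33 ± 0.18 and 10.40 ± 0.13 (SD, n = 3). The control means of Lypd1 probe 2 were further apart, at 5.72 ± 0.29 and 4.99 ± 0.17. In ethanol-exposed samples the means on chip 1 and chip 2 were 11.11 and 11.93 for Lypd1 probe 1. For Tshz1 they were 10.44 and 11.07, and for Lypd1 probe 2 they were 6.13 and 6.63, opposite in direction to its controls.

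The spread within the ethanol group was wider than in controls for Lypd1 probe 1 and Tshz1, which is given without a test. The SDs span both chips, so they hold part of the difference on each chip by which the genes were chosen. Ethanol-exposed means on chip 1 and chip 2 were 11.11 and 11.93 for Lypd1 probe 1, and 10.44 and 11.07 for Tshz1. Nothing is therefore read from the shares of probes given here. The SD of Lypd1 probe 1 was 4.34 times as large in ethanol-exposed samples as in controls, a ratio that 0.443% of tested probes reach, and that of Tshz1 2.91 times, which 2.48% reach. For Kremen1 the ratio was 1.51 (24.3% of probes) and for Lypd1 probe 2 it was 0.937 (62%). The median ratio over all tested probes was 1.08. For Lypd1 and Tshz1 the highest ethanol-exposed sample was ethanol 4, on chip 2, and the lowest was ethanol 2, on chip 1.

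**Figure D3:**
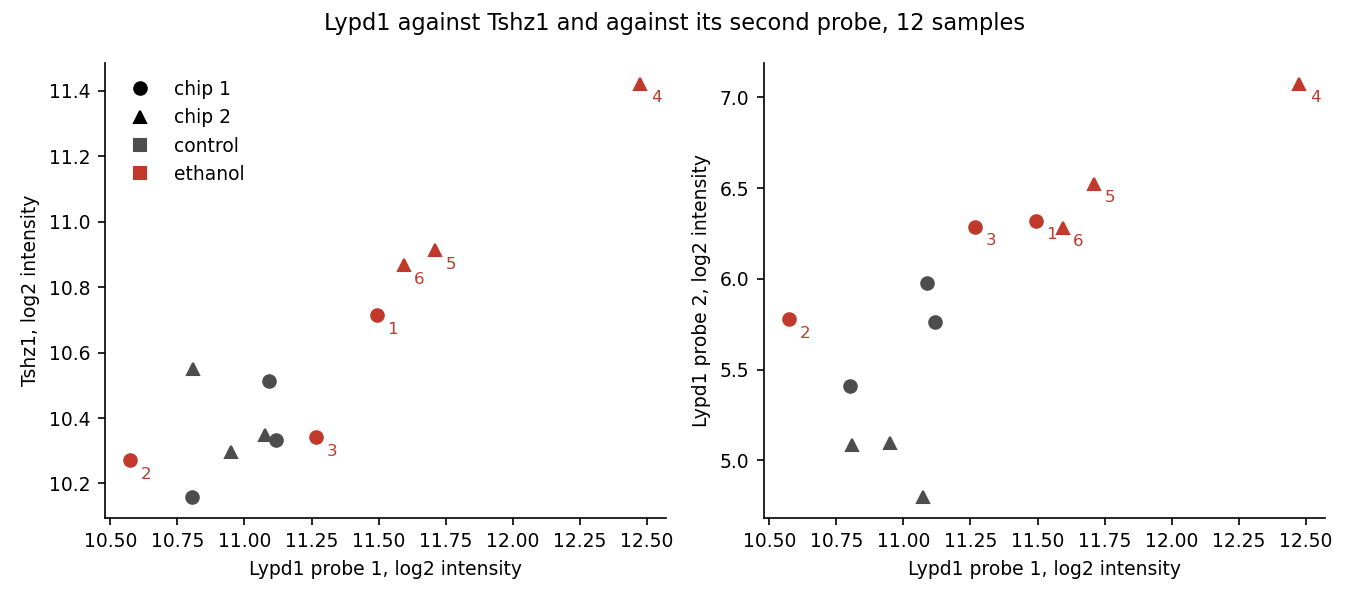
Log2 intensity of Tshz1 (left, y axis) and of Lypd1 probe 2 (right, y axis) against Lypd1 probe 1 (x axis) in the 12 samples, with the replicate number beside ethanol-exposed samples, circles for chip 1 and triangles for chip 2. The ethanol-exposed samples have the same order for Tshz1 as for Lypd1 probe 1, with ethanol 2 lowest and ethanol 4 highest.

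Lypd1 probe 1 and Tshz1 varied together among the ethanol-exposed samples, with a Pearson's r of 0.95 and a Spearman's rho of 1 over 6 samples. These samples span both chips, and the genes were chosen by the ethanol difference on each chip, so these values hold part of the pattern that chose them and carry no p. Without ethanol 2 and ethanol 4, the samples farthest from the median of Lypd1, r was 0.98 over the remaining 4. Over both groups, r was 0.77 on chip 1 and 0.95 on chip 2, values that hold the group difference as well. In the 6 controls, over a far narrower range of values, r was 0.16 (exact permutation p = 0.706) and rho 0.26 (exact permutation p = 0.658).

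To set aside what the choice of genes used, the mean of each group on each chip was removed and the 3 samples within each were permuted in every way (1296 permutations, two-sided, 6 pairs of probes). Lypd1 probe 1 and Tshz1 then had an r of 0.78 (exact permutation p = 0.027, adjusted p = 0.054) and a rho of 0.80 (exact permutation p = 0.0177, adjusted p = 0.0532). Both Lypd1 probes had an r of 0.83 (exact permutation p = 0.0262, adjusted p = 0.054) and Lypd1 probe 2 and Tshz1 an r of 0.83 (exact permutation p = 0.0123, adjusted p = 0.054). None of the 6 pairs passed an adjusted p of 0.05. Kremen1 probe 1 had an r of −0.38 with Lypd1 probe 1 (exact permutation p = 0.468) and of −0.73 with Tshz1 (exact permutation p = 0.0525, adjusted p = 0.0787).

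The other pairs among ethanol-exposed samples rested more on the end samples. Between both Lypd1 probes r was 0.98 and rho 0.83, and r was 0.69 without ethanol 2 and ethanol 4. Between Lypd1 probe 2 and Tshz1 r was 0.91 and rho 0.83, and r was 0.53 without those 2 samples. In controls these pairs had an r of 0.36 (exact permutation p = 0.492) and 0.13 (exact permutation p = 0.789). The arrays share their group, chip and handling, so these values describe samples and not single cells.

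The genes whose pattern over the 12 arrays was most like that of each member were taken as the 3 with the highest Pearson's r. For Lypd1 probe 1 they were Amotl1 (r = 0.95), Cachd1 (0.94) and Tunar (0.94), and with the mean of each group on each chip removed these values were 0.89, 0.88 and 0.93. Amotl1 is a scaffold protein at cell junctions. For Lypd1 probe 2 the nearest were Ntng1 (0.91), a membrane protein of axons and also a member of the thalamus list, Rps19 (0.91), a ribosomal protein, and Nrg3 (0.91), a neuregulin. With the same means removed these values fell to 0.76, 0.67 and 0.79. Tshz1 lay nearest to Esyt3 (0.95), Lin7a (0.94), a scaffold protein of synapses, and Rab9b (0.94), a small GTPase, and these stood above its r of 0.92 with Lypd1 probe 1. Kremen1 had Gpr108 (0.89), Myl6 (0.86), a myosin light chain, and Bod1 (0.86). With the means removed the values were 0.86, 0.91 and 0.91 for Tshz1 and 0.94, 0.89 and 0.85 for Kremen1. The values over the 12 arrays are the highest of 17185 or 17186 coefficients for each probe. They include what the groups share, so they carry no test.

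**Figure D4:**
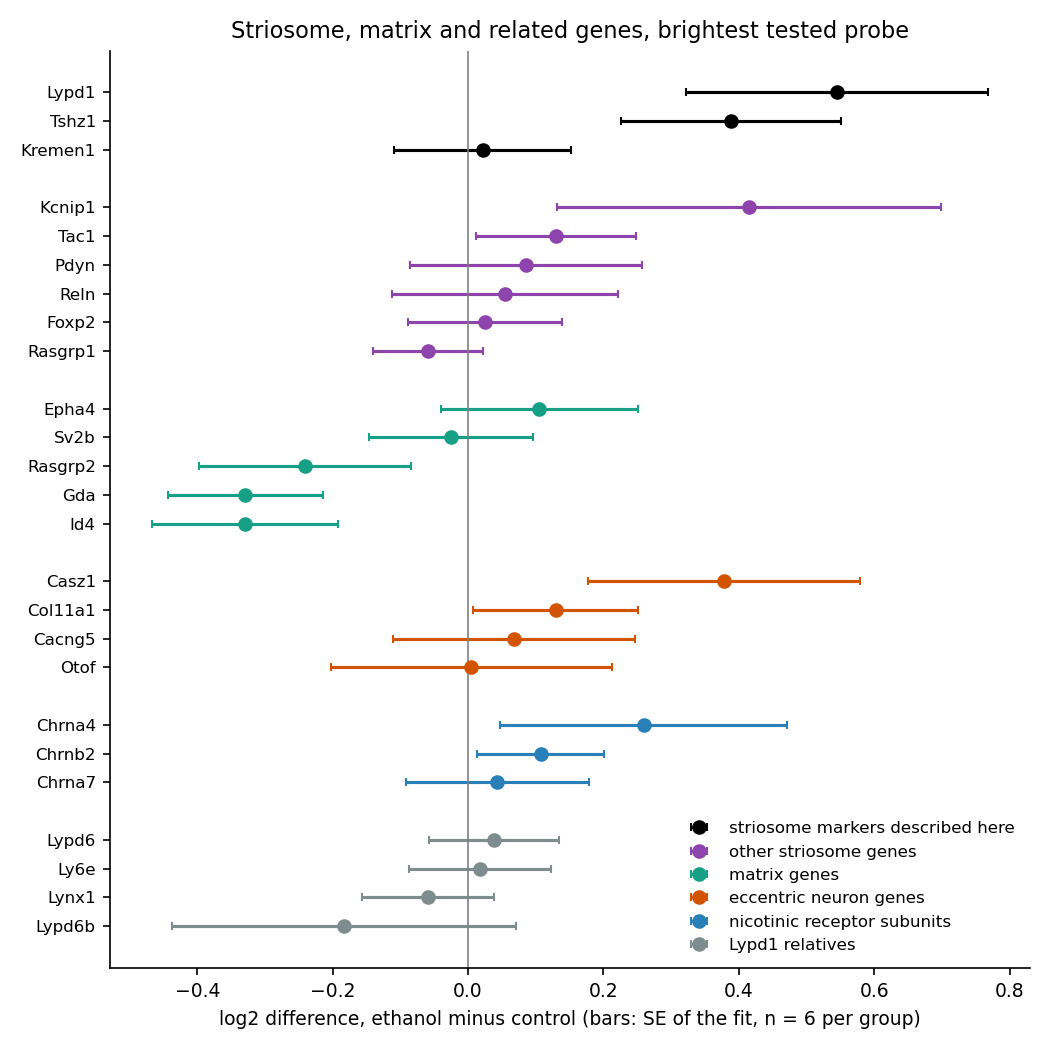
Log2 difference, ethanol minus control (x axis), of the brightest tested probe of each gene (y axis), with bars for the SE of the fit (n = 6 per group), coloured by gene list. Lypd1, Kcnip1 and Tshz1 lie furthest right among the striosome markers, at 0.54, 0.42 and 0.39. In the matrix list Id4, Rasgrp2 and Gda, the last near background, lie below 0.

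Among other genes of striosomes the values spread to both sides of 0. Of 8 such genes 6 passed the filter, and of these 5 were higher and 1 lower in ethanol-exposed samples, with 0 called by limma (adjusted p from 0.871 to 0.989). Their median log2 difference was 0.07, against 0.000372 over all tested probes. Kcnip1, a potassium channel partner, differed by 0.42 (SE 0.28), Tac1, the substance P precursor, by 0.13 (SE 0.12), and Rasgrp1, a Ras activator, by −0.06 (SE 0.08). The value of Kcnip1 was close to the 0.39 of Tshz1. Pdyn, the dynorphin precursor, differed by 0.09 (SE 0.17) on its brighter probe and 0.32 (SE 0.17) on the other. On chip 1 the median of this list was −0.13 and on chip 2 it was 0.28. Oprm1, the µ-opioid receptor that defines striosomes, and Nr4a1 were each detected on 0 of 12 arrays by their 1 probe. The mean level of the 6 genes was highest in ethanol 4, at 11.58, while the other ethanol-exposed samples spanned 10.94 to 11.21 and the controls 10.93 to 11.09.

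The matrix was followed by 6 genes known for higher levels there than in striosomes. Of these 5 passed the filter, with 1 higher and 4 lower in ethanol-exposed samples and 0 called (adjusted p from 0.845 to 0.99), and their median log2 difference was −0.24. The median was −0.13 on chip 1, as for the striosome list there, and −0.22 on chip 2. Id4, an inhibitor of helix-loop-helix transcription factors, had 10.42 ± 0.16 in controls and 10.09 ± 0.33 in ethanol-exposed samples (SD, n = 6), a difference of −0.33 (SE 0.14), and its second probe differed by −0.39 (SE 0.11). On chip 1 Id4 differed by −0.04 and on chip 2 by −0.62. Rasgrp2, which activates Rap1, was lower on all 3 of its probes, by −0.24 (SE 0.16) on the brightest. Gda, a guanine deaminase, differed by −0.33 (SE 0.11), and Epha4, a receptor for ephrins, by 0.11 (SE 0.15). The Gda probe lay near background and was detected on only 6 of 12 arrays. Calb1, the calbindin of matrix neurons, was detected on 0 arrays. Of the 12 tested genes of striatal projection neurons in general, 3 were higher and 9 lower, with 0 called and a median of −0.08. Whether striosome, matrix and general projection neuron genes differ from each other was not tested.

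The eccentric neurons, a projection neuron type that also expresses Tshz1, were followed by 5 genes, of which 4 passed the filter. All 4 were higher in ethanol-exposed samples and 0 were called (adjusted p from 0.854 to 0.999), with a median of 0.10. Casz1, a zinc finger factor, differed by 0.38 (SE 0.20), Col11a1, a collagen chain, by 0.13 (SE 0.12), and Otof, a calcium sensor of exocytosis, by 0.01 (SE 0.21). The Col11a1 probe lay near background and was detected on only 6 of 12 arrays. The median of the list was −0.21 on chip 1 and 0.43 on chip 2, and its level was highest in ethanol 4, at 7.51, against 6.52 to 6.97 in the other 11 samples.

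Partners and relatives of the members are given by their brightest tested probe unless another is named. Of the nicotinic receptor subunits on which Lypd1 acts, 3 of 9 passed the filter and 0 were called (adjusted p from 0.9 to 0.983). Chrna4 differed by 0.26 (SE 0.21) on its brighter probe and 0.01 (SE 0.22) on the other, Chrnb2 by 0.11 (SE 0.09) and Chrna7 by 0.04 (SE 0.13), and the other 6 were detected on 0 arrays. Of 6 relatives of Lypd1 in the Ly6 family, 4 were tested, 2 higher and 2 lower, among them Lynx1, which also tunes nicotinic receptors, at −0.06 (SE 0.10), and Lypd6b at −0.18 (SE 0.25). Ly6h is not analysed here. The paralogs Tshz2 and Tshz3 differed by 0.24 (SE 0.21) and 0.03 (SE 0.11), below the 0.39 of Tshz1.

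Around Kremen1, 4 of 8 genes of the Dickkopf and Wnt co-receptor list were tested, 3 higher and 1 lower, with 0 called. Kremen2, its paralog, differed by 0.15 (SE 0.11), the Wnt target Axin2 by 0.07 (SE 0.13) and the co-receptor Lrp6 by 0.004 (SE 0.10) on its brighter probe. For the semaphorin list 4 of 8 were tested, 2 higher and 2 lower, with 0 called, and Sema5a, the paralog of the unmeasured Sema5b, differed by 0.24 (SE 0.17). Nrp1, a semaphorin co-receptor, differed by 0.19 (SE 0.18), 0.09 (SE 0.17) and 0.59 (SE 0.21) on its 3 probes, from bright to dim. Of the list around Bach2, 3 of 5 were tested, with 0 called, and the small Maf gene Mafg differed by 0.12 (SE 0.09) and Bach1 by −0.03 (SE 0.18).

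**Figure D5:**
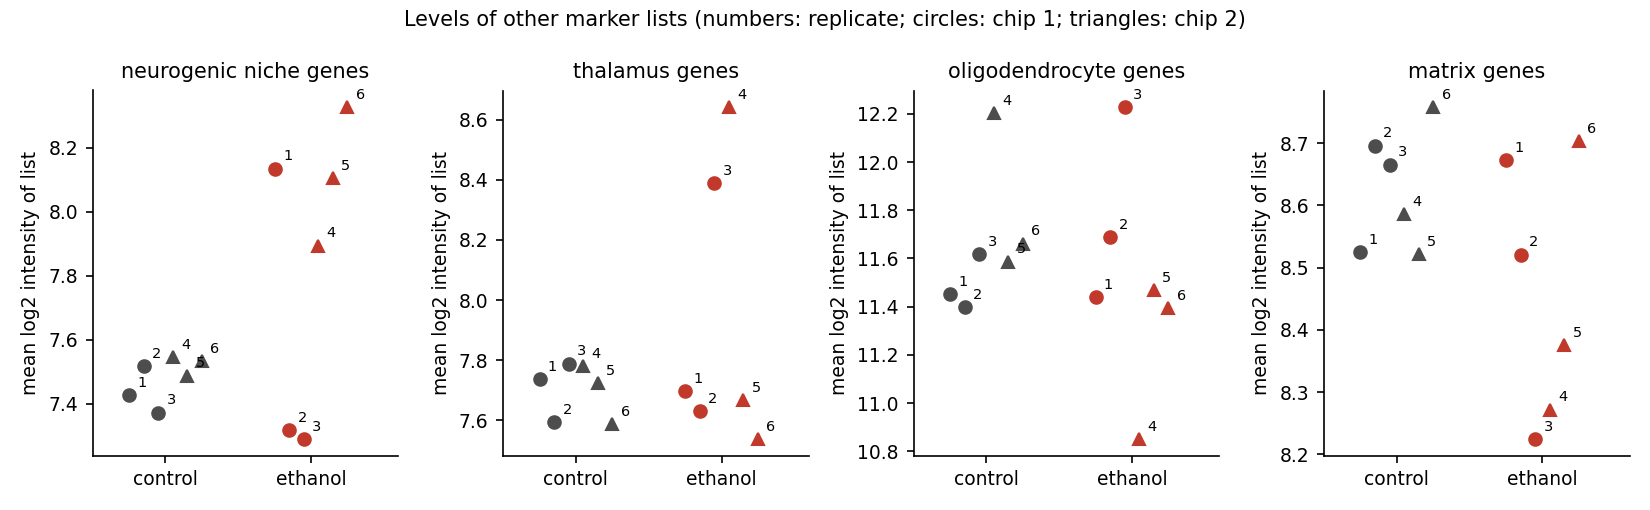
Mean log2 intensity (y axis) of the tested genes of 4 marker lists in the 12 samples, by group (x axis), with the replicate number beside each symbol, circles for chip 1 and triangles for chip 2. Neurogenic niche genes are high in ethanol 1, 4, 5 and 6, and thalamus genes in ethanol 3 and 4.

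Markers of neighbouring regions and other cells differed between samples, each list in its own set of samples. The neurogenic niche, the germinal zone along the ventricle beside the caudate putamen, was followed by 8 genes, of which 6 passed the filter. By their brightest tested probe all 6 were higher in ethanol-exposed samples and 0 were called (adjusted p from 0.845 to 0.913), with a median of 0.35. Their level was 7.37 to 7.55 in controls, 8.13, 7.89, 8.11 and 8.33 in ethanol 1, 4, 5 and 6, and 7.32 and 7.29 in ethanol 2 and 3. The 4 samples above the controls are the same 4 in which Tshz1 exceeded every control. Their order differed, since of these 4 ethanol 4 was the highest for Tshz1 (11.42) and the lowest for this list. Ethanol 3 exceeded every control for Lypd1 probe 1 (11.27), while its level for this list lay below every control. Dlx2, a transcription factor of this lineage, differed by 0.61 (SE 0.24) on its brighter probe and −0.03 (SE 0.21) on the other. Dcx, a microtubule protein of migrating neurons, differed by 0.32 (SE 0.15) on its brighter probe and 0.09 (SE 0.17) on the other. The dimmer tested probes of Igfbpl1 and Sox11 differed by 0.04 (SE 0.24) and 0.03 (SE 0.12). Cd24a was detected on 0 arrays.

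Thalamus genes were high in ethanol 3 and 4, at 8.39 and 8.64, and between 7.54 and 7.79 in the other 10 samples. Of 9 such genes 7 were tested, 5 higher and 2 lower, with 0 called. The 2 lower were Rora, at −0.20 (SE 0.12), and Tcf7l2, at −0.05 (SE 0.15). On chip 2 Rora differed by −0.45 (SE 0.13). Zic1, a zinc finger factor, differed by 0.47 (SE 0.18), Gbx2, a homeobox factor, by 0.34 (SE 0.18), and Ntng1 by 0.36 (SE 0.22) on its brightest probe. Slc17a6, the vesicular glutamate transporter that defines thalamic neurons, differed by 0.33 (SE 0.54), and Synpo2 and Lef1 did not pass the filter. Oligodendrocyte genes, of which 10 of 12 were tested, were lowest in ethanol 4, at 10.85, against 11.39 to 12.23 in the other samples, with 1 higher and 9 lower over both chips. On chip 1 all 10 were higher in ethanol-exposed samples, with a median of 0.30, and on chip 2 all 10 were lower, with a median of −0.59. Genes of the claustrum and deep cortex, 3 of 5 tested, were highest in ethanol 4, at 7.43, against 6.47 to 7.11. Cortical genes, 3 of 8 tested, had a mean level of 6.95 in ethanol 4 and 7.33 in control 2, and Neurod6 and Emx1 were detected on 0 arrays. Of the 3, Slc17a7 varied most in controls (SD 1.05). Vascular genes were higher for 6 of 6 by their brightest tested probe, with a median of 0.23 and 0 called. Their level was lowest of the ethanol group in ethanol 4. The dimmer tested probe of Pecam1 differed by −0.001 (SE 0.19). Astrocyte, microglia and choroid plexus genes were higher for 4 of 7, 2 of 6 and 1 of 2 tested genes, with 0 called. The part of these lists in the Lypd1 and Tshz1 values was not tested.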

How the data were processed

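Total RNA of 12 caudate putamen samples was hybridised to 1 array each. The main deposited table gives an unnormalized linear intensity for every probe on every array, with a detection p-value beside it, per the file headers. A second table holds the intensities as normalized by the authors, with quartiles shared by all columns. GenomeStudio 1.9.0 is named in the submitters' processing notes, while the background setting used there is not given in these sources.

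The neqc function (limma 3.58.1, R 4.3.3) estimated background from the detection p-values, added an offset of 16, quantile normalized the arrays and returned log2 values. Probes detected at p under 0.05 on at least 6 arrays were tested (20296 of 45281, 44.8%) with lmFit and eBayes, two-sided, with Benjamini-Hochberg adjustment over all of them. Array number limits precision, and the median SE was 0.113. In GEO's platform annotation 34885 probes had a single symbol. The brightest tested probe stands for a gene in a list. Correlations used exact permutation, two-sided (scipy 1.17.1), and the one within each group and chip was chosen after seeing the data. No pair of arrays was close enough to be a copy (smallest root mean square difference 0.272). The fit was tested on simulated data. Alternatives covered background, normalization, filter, chip, pairing and left-out samples, and 1 of them, chip 2 without ethanol 4, was chosen after seeing the data.

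Members and lists were chosen with earlier results of these data known. The naming rule took every member probe, up to 3 genes per list by smallest p, a set of marker genes, and the 3 nearest patterns per probe. Other genes, such as those named as undetected, were chosen after their values were seen.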

Additional observations from a re-analysis of the deposited data

Results flagged for a closer look

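For the 4 tested member probes and 14 list levels, the highest or lowest of the 6 samples in each group was compared with its nearest neighbour by Dixon's gap over range. This gave 36 tests, of which 3 passed the 95% limit, where about 1 in 20 would by chance. No member probe passed, although ethanol 4 was the highest sample for Lypd1 and Tshz1. The mean of the 3 tested cortical genes was high in control 2, at a log2 intensity of 7.33 against 6.35 to 6.53 in the other controls. It was also high in ethanol 4, at 6.95 against 6.17 to 6.36 in the rest of its group. Control SDs were 1.05 for Slc17a7, detected on 9 of 12 arrays, 0.19 for Rorb and 0.099 for Cux2. In controls this mean therefore rests mainly on Slc17a7. Oligodendrocyte genes were high in control 4, at 12.20 against 11.40 to 11.66.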

How the results depend on the processing

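The number of probes past the threshold between ethanol-exposed and control samples was 0 under each of the 29 alternatives, and the tested member probes higher in ethanol-exposed samples numbered 3 or 4. Lypd1 probe 1 and Tshz1 stayed above 0 throughout, at 0.11 to 0.98 and 0.11 to 0.67, with the ends on chip 1 and chip 2. Lypd1 probe 2, at 1.03, was 0.38 both without background correction and in the authors' normalized intensities, 0.64 with an offset of 50, 0.41 on chip 1, 1.64 on chip 2 and 1.41 on chip 2 without ethanol 4. Its single-sample omissions gave 0.89 to 1.15. A filter on all 12 arrays or a detection p under 0.01 removed that probe. With the replicate number as a block the differences were 0.54, 1.03, 0.39 and 0.02 for Lypd1 probes 1 and 2, Tshz1 and Kremen1, and 0 probes passed. Same-numbered samples had correlated deviations of −0.14 to 0.28, so the numbers were not taken as pairs, and 2 of 6 ethanol-exposed samples correlated best with the control of their own number. Between chips, the 2 probes past the threshold became 15 without background correction, in the authors' table and with trend and robust moderation, 0 with median scaling, 1 with detection on all 12 arrays and 6 without ethanol 3 and ethanol 4. Leaving out single samples gave 0 to 1, and the cause of these shifts was not tested. No alternative brought a member probe past the threshold between chips. Of the probes with an unadjusted p under 0.05 between groups, median scaling had 336 higher and 678 lower, against 588 and 587. Dim signal limits Lypd1 probe 2, Kremen1 probes 2 and 3 and Bach2.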
